A study of Mus musculus with 8 samples.

Results

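The clustered protocadherin locus was taken as the megabase of mouse chromosome 18 from 37050001 to 38050000 (mm9 build), which spans the Pcdha, Pcdhb and Pcdhg gene clusters. Its members were all positions of MNase-protected DNA whose summit lay in this interval, 13287 of 37444400 positions on chromosomes 1 to 19 and X over 8 lists. MNase digests DNA that is not protected by protein, so a called position marks a protected site. Germ cells enriched from mouse testis came from animals lacking the histone variant H2A.L.2 (H2A.L.2-less) and from wild-type (WT) animals. Each genotype gave 1 library from spermatocytes, 1 from round spermatids and 2 from condensing spermatids, divided on a gel into nucleosome-like DNA (roughly 130 to 170 bp) and small structures (roughly 40 to 80 bp). The labels do not state the age of the animals, how many were pooled or how pure the enriched fractions were.

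Protocadherins of these clusters are cell-surface adhesion proteins best known from neurons, where each cell expresses its own combination of them. In the alpha and gamma clusters, each variable first exon has its own promoter and is spliced to shared constant exons, while beta genes are single-exon genes. During spermiogenesis most histones are exchanged for transition proteins and then for protamines, and H2A.L.2 is a testis-specific histone variant of the late stages. In the GRCm38.p6 annotation the order along the chromosome is 14 alpha genes (Pcdha1 to Pcdhac2), 22 beta genes (Pcdhb1 to Pcdhb22) and 22 gamma genes (Pcdhga1 to Pcdhgc5), 1 of the last a pseudogene. An mm9 annotation was not used here, so stretches of the locus are given by coordinate and not by gene.

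With 1 library in each group there was no replicate check, and no test was made. Intervals are 95% intervals for counting error only, and an SD over the other 1 Mb windows of chromosome 18 describes variation along the chromosome, not between animals. The depth of each library is not given in the sources used here, and the lists hold between 3779744 and 5385833 positions on chromosomes 1 to 19 and X. The summit value of a position, the height of its coverage, is therefore given only relative to the median of its own list.

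The protocadherin megabase had a lower density of nucleosome positions than the rest of chromosome 18 in spermatocytes and round spermatids. In WT cells this was within the spread of the chromosome's windows. In condensing spermatids the number was mid-range among these windows. In spermatocytes there were 1444 positions in the H2A.L.2-less list and 1661 in the WT list. These were 0.749 times (0.711 to 0.789) and 0.809 times (0.770 to 0.848) the density of the rest of chromosome 18. Round spermatids had 1621 H2A.L.2-less and 1829 WT positions, at 0.822 times (0.783 to 0.863) and 0.855 times (0.817 to 0.896). Condensing nucleosomes had 1585 H2A.L.2-less and 1571 WT positions, at 1.05 times (1.002 to 1.11) and 1.07 times (1.02 to 1.12). The 4 lists of the earlier stages thus lay below the chromosome. Both H2A.L.2-less lists were below the mean of the other 1 Mb windows by more than their SD, 389 positions in spermatocytes and 207 in round spermatids. Both WT lists were below it by less than their SD, 509 and 567 positions. The condensing lists were slightly above its mean but ranked 39 in H2A.L.2-less and 36 in WT cells among 87 windows, the locus included, with SDs of 432 and 410 positions. With the borders moved inwards by 50 kb the H2A.L.2-less log2 ratio was 0.07 (-0.00497 to 0.15), no longer excluding 0. Against all autosomes the condensing nucleosome lists no longer stood above, with log2 ratios of -0.00915 in H2A.L.2-less and 0.0175 in WT cells.

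Small structures, the short protected fragments of condensing spermatids, numbered 1552 in the H2A.L.2-less and 2024 in the WT locus, close to the chromosome's density at 1.05 times (0.997 to 1.10) and 1.01 times (0.966 to 1.05). Against all autosomes both were lower, with a log2 ratio of -0.11 in each genotype, while with equal numbers of positions per list both were higher than the rest of chromosome 18, at 0.13 in H2A.L.2-less and 0.14 in WT cells. The spread of 1 Mb windows was wide, with an SD of 207 positions in H2A.L.2-less round spermatids and 567 in WT round spermatids. Among the windows with at least 500 positions, 72 of the other 86 held more H2A.L.2-less spermatocyte positions than the locus and 64 more WT ones. In round spermatids, 81 of 86 windows held more H2A.L.2-less positions and 58 more WT ones. The adjoining megabases were richer than the locus in all 8 lists. In WT small structures, for example, the locus held 2024 positions, and the megabases before and after it 3329 and 3939.

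**Figure D1:**
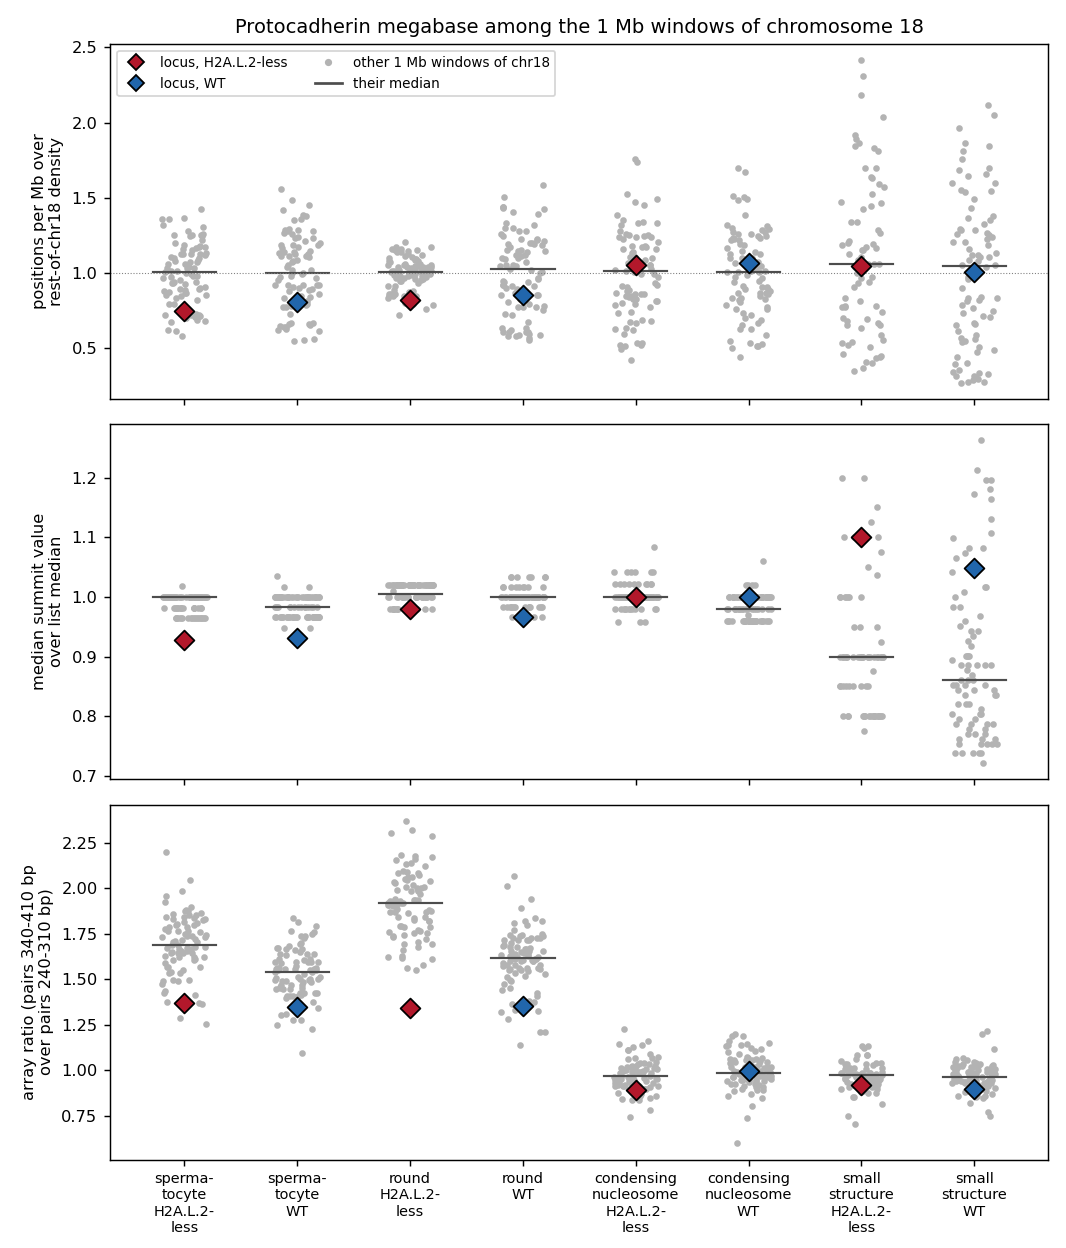
Density (top), median summit value (middle) and array ratio (bottom) of the protocadherin megabase (diamonds) in each list, beside the other 1 Mb windows of chromosome 18 with at least 500 positions (grey points, line at their median). The locus lies below the line in density and height in the 4 spermatocyte and round spermatid lists. In WT density it is within the spread of the windows, and in the height of H2A.L.2-less round spermatids the gap is small. It lies high in the height of small structures, in WT within the spread of the windows, and below all other windows in the array ratio of H2A.L.2-less round spermatids (1.34).

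The change of position number between stages restates this contrast, because it is made from the same counts as the densities. Condensing nucleosomes over round spermatid nucleosomes gave a log2 ratio of -0.03 (-0.13 to 0.07) in the H2A.L.2-less locus, against -0.39 in the rest of chromosome 18. In WT the ratio was -0.22 (-0.32 to -0.12) in the locus, against -0.54 in the rest. Only 8 of the other 86 windows had a higher ratio than the locus in H2A.L.2-less cells, and 7 of 86 in WT. The condensing libraries are the ones for which a fragment size range is stated, so stage and fragment selection cannot be told apart in this comparison.

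Between genotypes, no ratio of position number in the locus departed from the chromosome under every setting. The H2A.L.2-less over WT log2 ratio of position number was -0.20 (-0.30 to -0.10) in spermatocytes, against -0.09 in the rest of chromosome 18. It was -0.17 (-0.27 to -0.08) in round spermatids against -0.12, and 0.01 (-0.09 to 0.11) in condensing nucleosomes against 0.03. Small structures gave -0.38 (-0.48 to -0.29) against -0.44, where the calling floor, the first percentile of summit values, was 96 in the H2A.L.2-less and 272 in the WT list. The interval excluded the chromosome's ratio in spermatocytes only, where the difference was -0.11 (-0.21 to -0.00713) and the locus ranked 77 of 87 windows (SD 0.09). This exclusion was lost with equal numbers of positions per list (-0.08, -0.20 to 0.0466), against all autosomes (-0.08, -0.18 to 0.0204) and with the borders moved inwards (-0.11, -0.22 to 0.000611).

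Summits in the locus were also low in the early lists, least so in H2A.L.2-less round spermatids. They were high among small structures, though in WT within the spread of the chromosome's windows. The median summit value in spermatocytes was 0.929 times the list median (0.929 to 0.964) in H2A.L.2-less and 0.931 (0.931 to 0.966) in WT cells, against 1.0 and 0.983 in the rest of chromosome 18. All 86 other windows had a higher median in both spermatocyte lists. In round spermatids the medians were 0.980 (0.961 to 0.980) and 0.967 (0.933 to 0.967), against 1.0 in the rest of the chromosome for both. The locus ranked 69 in H2A.L.2-less and 82 in WT cells among the 86 other windows and itself. Summit values come in multiples of 4 and the H2A.L.2-less list median was 204, so that gap is between neighbouring values. With equal numbers of positions per list its log2 ratio was 0. Condensing nucleosomes stood at 1.0 in both genotypes, in the locus and in the rest.

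Small structures in the locus had medians of 1.10 (1.075 to 1.175) in H2A.L.2-less and 1.05 (1.02 to 1.08) in WT cells, against 0.900 and 0.934 in the rest of chromosome 18. Medians of the other 1 Mb windows had SDs of 0.106 and 0.135, so the WT gap was within their spread and the H2A.L.2-less gap was not. The locus ranked 5 in H2A.L.2-less cells among the 75 other windows and itself, and 15 in WT among 86 and itself. Of the locus positions, 216 of 1552 in H2A.L.2-less cells (13.9%, 12.3 to 15.7) and 119 of 2024 in WT cells (5.88%, 4.94 to 6.99) reached at least 2 times the list median. The rest of chromosome 18 had 6.44% and 3.56%. The SDs over its other 1 Mb windows were 3.27 and 2.68 points, so the WT difference was within the spread. Over chromosomes 1 to 19 and X the shares were 9.32% and 6.12%, so the WT share was above that of its chromosome but not that of the genome. The median heights stood above all autosomes by less, at log2 ratios of 0.14 in H2A.L.2-less and 0.06 in WT cells, against 0.29 and 0.17 over the rest of chromosome 18. In the nucleosome lists between 0.382% and 0.631% of locus positions were this high, against 0.390% to 0.874% in the rest of chromosome 18. The interval excluded the chromosome's share in WT round spermatids only (0.437%, 0.222 to 0.861, against 0.874%).

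Along the locus, positions were not evenly spread, and the last 300 kb were the richest part, a division chosen after the values were seen. From 37750001 to 38050000, H2A.L.2-less small structures had 2237 positions per Mb against 1259 in the other 7 windows of 100 kb, a ratio of 1.78, and WT ones 2863 against 1664, a ratio of 1.72. In nucleosome lists the ratio was 1.27 in H2A.L.2-less and 1.57 in WT spermatocytes, 1.09 and 1.36 in round spermatids, and 1.32 in both genotypes in condensing spermatids. The excess of the last 300 kb was thus smaller in H2A.L.2-less than in WT cells at both early stages and close between genotypes in condensing nucleosomes. Numbers along the whole chromosome differed between genotypes in the same way. The SD over its other 1 Mb windows was 389 in H2A.L.2-less and 509 in WT spermatocytes, and 207 and 567 in round spermatids. In condensing nucleosomes it was 432 and 410. Whether the smaller excess is particular to the locus was not tested.

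Of the 10 windows of 100 kb, the one with the lowest genotype ratio lay in this stretch in both early stages. The windows named here were picked as the lowest and highest of the 10, which favours intervals away from 0. The log2 ratio in the rest of chromosome 18 was -0.09 in spermatocytes and -0.12 in round spermatids. Its SD over other 1 Mb windows was 0.09 and 0.28, and the spread over other 100 kb windows was not measured. From 37850001 to 37950000 there were 144 H2A.L.2-less and 203 WT spermatocyte positions (log2 ratio -0.50, -0.81 to -0.18). From 37950001 to 38050000 there were 171 H2A.L.2-less and 243 WT round spermatid positions (-0.51, -0.80 to -0.22). The highest ratios were 0.08 (-0.27 to 0.44) in spermatocytes, from 37650001 to 37750000 with 140 and 132 positions, and 0.10 (-0.21 to 0.42) in round spermatids, from 37350001 to 37450000 with 175 and 163. In condensing nucleosomes the ratios ran from -0.31 (37550001 to 37650000, 132 against 164) to 0.20 (37150001 to 37250000, 161 against 140), and both intervals included 0. For small structures all 10 windows were lower in the H2A.L.2-less list, from -0.51 (37250001 to 37350000, 114 against 162) to -0.31 (37650001 to 37750000, 130 against 161). This range spans the ratio of -0.44 in the rest of chromosome 18, where the H2A.L.2-less list was also the shorter one.

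The first 100 kb of the locus, from 37050001 to 37150000, was the poorest window of the H2A.L.2-less early lists, with 101 spermatocyte and 113 round spermatid positions against 132 and 153 in WT. Of the other 100 kb windows of chromosome 18, 0.807% held fewer H2A.L.2-less spermatocyte positions and 0.115% fewer round spermatid positions. The same window held 151 small structures in H2A.L.2-less and 206 in WT cells. Their median height there was the highest along the locus in H2A.L.2-less cells, at 1.375 times the list median, and was 1.197 times in WT. The lowest median heights of small structures were 0.80 in H2A.L.2-less and 0.828 in WT cells, both from 37250001 to 37350000.

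**Figure D2:**
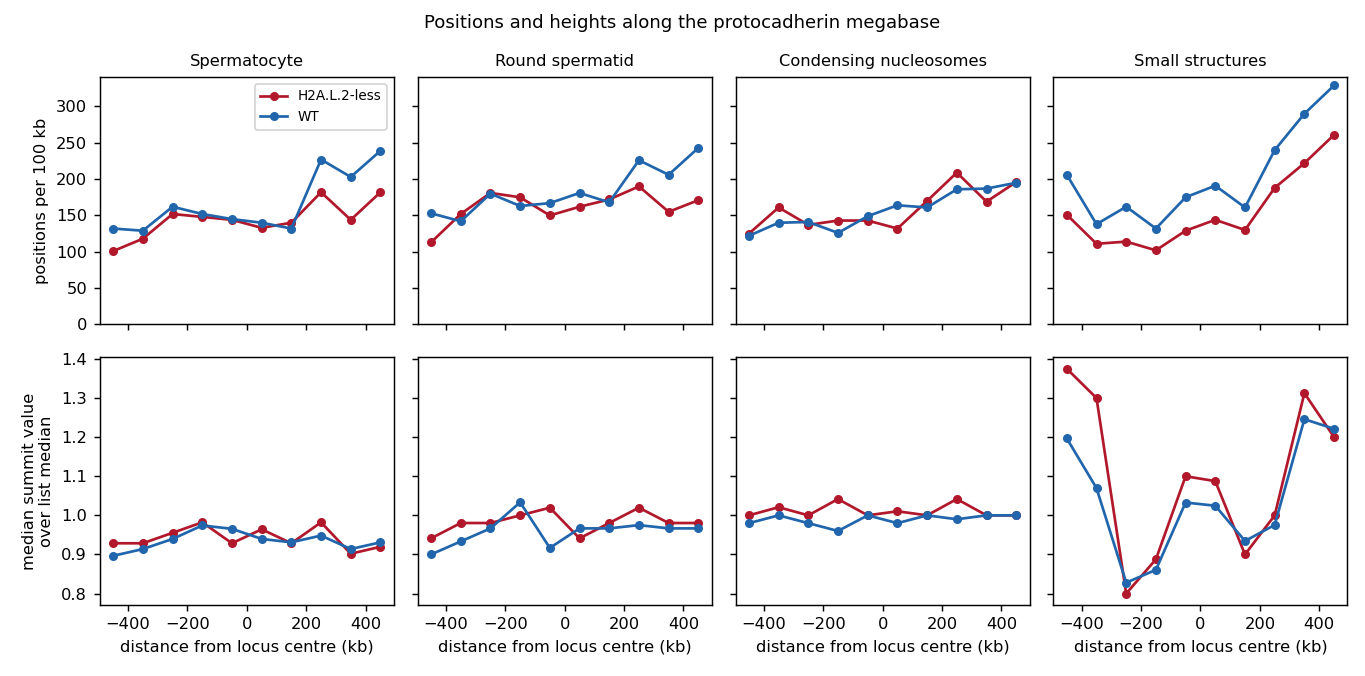
Number of positions (top) and median summit value over the list median (bottom) in the 10 windows of 100 kb, by distance from the centre of the locus, for H2A.L.2-less (red) and WT (blue) lists. Numbers are highest at the right end, up to 329 WT small structures, and the height of small structures has a low at the third window (0.80 in H2A.L.2-less and 0.828 in WT cells).

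Summits of spermatocyte and round spermatid nucleosomes repeated at regular distances in the locus, with fewer pairs at the second-neighbour distance, relative to the trough before it, than elsewhere on the chromosome. The array ratio is the number of summit pairs 340 to 410 bp apart, where the second neighbour of a regular array falls, over pairs 240 to 310 bp apart, between neighbours. In round spermatids it was 1.34 (1.11 to 1.62, 275 over 205 pairs) in the H2A.L.2-less and 1.35 (1.16 to 1.58, 388 over 287 pairs) in the WT locus, against 1.90 and 1.62 in the rest of chromosome 18. The H2A.L.2-less value lay below all 86 other windows, and the WT value below 79. In spermatocytes the ratios were 1.37 (1.12 to 1.68) and 1.35 (1.13 to 1.62), against 1.68 and 1.54. The interval of WT spermatocytes included the chromosome's value. On the log2 scale, the difference in H2A.L.2-less spermatocytes (-0.29, -0.58 to -0.00516) no longer excluded 0 with equal numbers of positions per list (-0.27, -0.66 to 0.13) or against all autosomes (-0.27, -0.56 to 0.0198). In WT round spermatids it no longer did so with equal numbers (-0.34, -0.70 to 0.0179). In H2A.L.2-less round spermatids 0 was excluded under both settings.

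Elsewhere on the chromosome H2A.L.2-less cells had the higher array ratio at both early stages, while in the locus the genotypes were close. Pairs are not independent, so these intervals are too narrow. The first peak of the distance curve lay at 170 bp in the H2A.L.2-less and 180 bp in the WT locus at both early stages, against 180 bp in the rest of the chromosome. The trough between the first and second peaks was shallower in the locus in all 4 early lists. In round spermatids it stood at 0.850 times the level at 800 to 1000 bp in the H2A.L.2-less and 0.816 times in the WT locus, against 0.676 and 0.745 in the rest. The peaks themselves did not share a direction. The spermatocyte first peaks were higher in the locus (1.79 and 1.72 times, against 1.64 and 1.54), and in round spermatids they were lower (1.548 and 1.554 times, against 1.71 and 1.59). Second peaks were lower in the spermatocyte locus (1.32 and 1.29 times, against 1.39 and 1.34). In round spermatids they were lower in H2A.L.2-less cells (1.37 against 1.48) but not in WT (1.40 against 1.38). The H2A.L.2-less spermatocyte second peak lay at 340 bp, the edge of the band counted, against 380 bp in the rest.

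In condensing spermatids the array ratio was below 1 in all 4 lists, in the locus and in the rest of chromosome 18. The locus values were 0.895 (0.751 to 1.07) in H2A.L.2-less and 0.996 (0.832 to 1.19) in WT nucleosomes, and 0.920 (0.798 to 1.06) and 0.900 (0.801 to 1.01) in small structures. The rest of the chromosome had 0.974 and 0.994, and 0.970 and 0.966, and each locus interval included both that value and 1. Small structures in the locus were more often close neighbours than on the rest of the chromosome. The peak of their distance curve between 120 and 220 bp lay at 130 bp in H2A.L.2-less and 140 bp in WT cells, at 1.87 and 1.92 times the level at 800 to 1000 bp, against 1.46 and 1.50 times in the rest.

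The longest runs of summits 160 to 220 bp apart differed by list. In H2A.L.2-less spermatocytes 7 summits followed each other from 37822221 to 37823311, at a mean distance of 182 bp, and in WT spermatocytes 5 from 37072951 to 37073661, at 177.5 bp. In round spermatids the longest runs held 5 summits in H2A.L.2-less cells (37145281 to 37146071) and 7 in WT cells (37468221 to 37469421). Runs of 5 or more numbered 1 and 2 in the H2A.L.2-less and WT spermatocyte locus, where the rest of chromosome 18 had 7.55 and 8.36 per Mb. Round spermatids had 4 and 8, against 6.82 and 11.96 per Mb. These counts are small and were not adjusted for the lower density of the locus, and fewer positions leave fewer runs. Of distances up to 1000 bp, 22.8% and 23.1% were 160 to 220 bp in the spermatocyte locus, against 25.4% in the rest for both genotypes. In round spermatids the shares were 21.5% and 24.9%, against 25.5% and 27.2%. Condensing nucleosomes had 1 each, against 0.899 and 0.795 per Mb, with longest runs of 6 (37144751 to 37145771) and 7 summits (38009421 to 38010591).

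**Figure D3:**
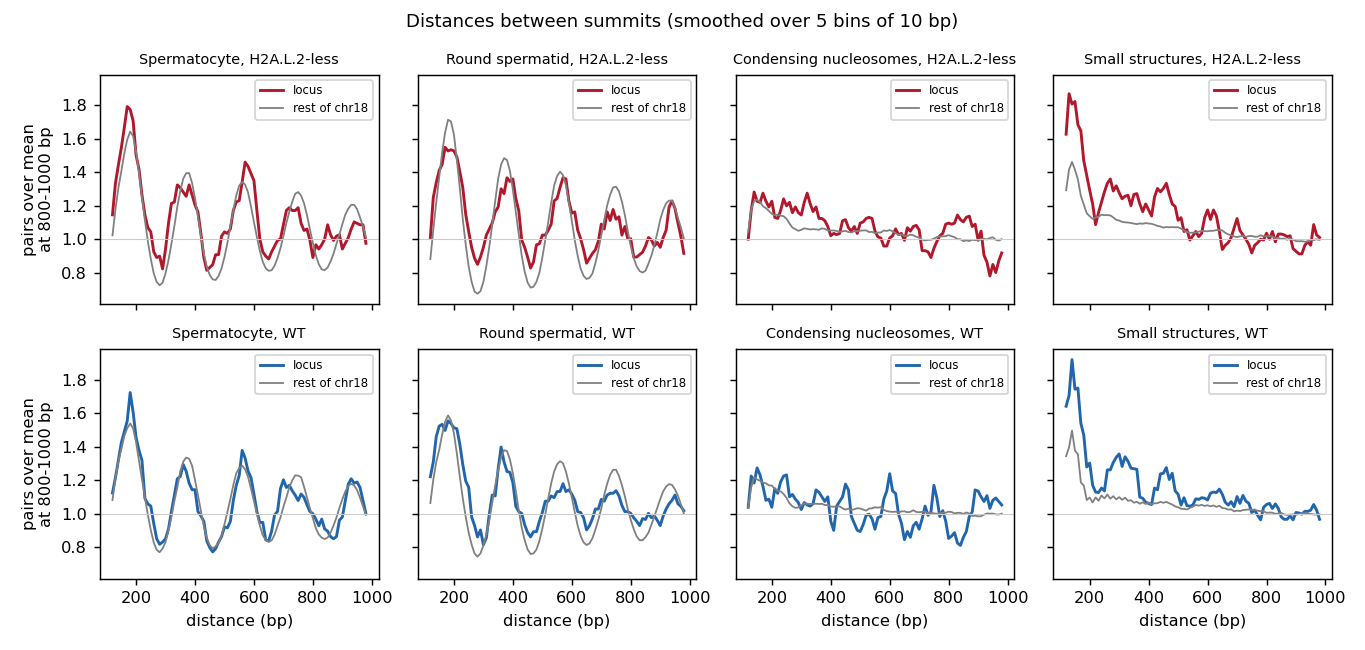
Number of summit pairs by distance, over the mean at 800 to 1000 bp, in the locus (coloured) and in the rest of chromosome 18 (grey), for H2A.L.2-less (top) and WT (bottom) lists. The trough of the early stages is shallower in the locus than in the rest of the chromosome, for example 0.850 against 0.676 in H2A.L.2-less round spermatids, and small structures show a high first peak at 130 to 140 bp (1.87 and 1.92).

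The median distance between neighbouring summits up to 1000 bp apart was 300 bp (270 to 320) in the H2A.L.2-less and 290 bp (270 to 320) in the WT spermatocyte locus, against 280 and 260 bp in the rest of chromosome 18. Round spermatids had 315 and 250 bp, against 300 and 245 bp, and condensing nucleosomes 300 and 317.5 bp, against 320 and 325 bp. Small structures lay closer together than on the rest of the chromosome, at 200 bp (190 to 210) in H2A.L.2-less and 190 bp (190 to 200) in WT cells, against 240 and 220 bp. Stretches of over 2000 bp with no summit in any list covered 1.795% of the locus, 6 stretches in all, and 1.40% of the rest of chromosome 18. The longest were 3749 bp (37062532 to 37066280), 3569 bp (37258502 to 37262070) and 2989 bp (37186852 to 37189840).

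Fuzziness, the authors' score for how widely fragments scatter around a summit, was higher in the locus among small structures. Its median was 51.7 (51.2 to 52.1) in H2A.L.2-less and 53.3 (53.0 to 53.6) in WT cells, against 49.5 and 52.0 in the rest of chromosome 18, where windows had SDs of 1.44 and 1.21. Only 4 of the other 75 windows were fuzzier in H2A.L.2-less cells, and 8 of 86 in WT. In round spermatids the median was 52.9 (52.7 to 53.1) and 53.5 (53.3 to 53.7), against 52.6 and 53.0. Both differences were within the SDs over windows (0.389 and 0.685). The H2A.L.2-less difference no longer excluded 0 against all autosomes (0.135, -0.0834 to 0.375) or with the borders moved inwards (0.130, -0.144 to 0.384). Spermatocyte medians were 52.8 and 53.0 and condensing nucleosome medians 54.1 and 54.3, and their intervals included the chromosome's values.

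Positions of the locus were less often found in both genotypes than positions elsewhere, at the early stages. Summits of different lists were matched within 40 bp. Of the H2A.L.2-less spermatocyte summits, 724 of 1444 had a WT counterpart (50.1%, 47.6 to 52.7), against 54.9% in the rest of chromosome 18 and 55.7% over chromosomes 1 to 19 and X. With matches within 20 bp this difference was -2.22 points (-4.66 to 0.291). In round spermatids 674 of 1621 were matched (41.6%, 39.2 to 44.0), against 48.2% and 49.2%. In condensing nucleosomes 477 of 1585 were matched (30.1%, 27.9 to 32.4), against 28.2% and 30.1%. Small structures had 1190 of 1552 matched (76.7%, 74.5 to 78.7), against 74.5% and 75.4%.

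Read from the WT lists, 724 of 1661 spermatocyte summits had an H2A.L.2-less counterpart (43.6%, 41.2 to 46.0), against 51.5% in the rest of chromosome 18 and 51% genome-wide, a lower share than in all 86 other windows. The WT share was 36.9% (34.7 to 39.1) in round spermatids, against 44.4% and 43.4%. It was 30.4% (28.1 to 32.7) in condensing nucleosomes, against 28.9% and 31%, and 58.8% (56.6 to 60.9) in small structures, against 55.0% and 57.8%.

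A list with fewer positions offers fewer counterparts. With the query summits moved by 5 kb, 15.1% of H2A.L.2-less spermatocyte summits of the locus met a WT summit, against 19.8% in the rest of chromosome 18. Relative to this background the locus shares were 3.32 times in spermatocytes, 2.53 times in round spermatids, 2.00 times in condensing nucleosomes and 3.52 times in small structures. The rest of the chromosome had 2.78, 2.42, 1.90 and 2.90 times. In this form none of the 4 shares was below that of the chromosome. The differences were within the SDs over windows (0.820, 0.473, 0.509 and 1.74 times).

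Stages matched in the same way. Of round spermatid summits in the locus, 569 of 1621 in H2A.L.2-less cells (35.1%, 32.8 to 37.5) and 841 of 1829 in WT cells (46.0%, 43.7 to 48.3) had a spermatocyte counterpart, the lowest shares among the windows of chromosome 18. The rest of the chromosome had 43.6% and 53.1%, and the genome 44.6% and 53.8%. Of condensing nucleosome summits, 417 of 1585 in H2A.L.2-less cells (26.3%, 24.2 to 28.5) and 445 of 1571 in WT cells (28.3%, 26.2 to 30.6) had a round spermatid counterpart. The rest of the chromosome had 31.1% and 33.2%, and the genome 30.9% and 34.7%. Over the background with moved summits, the step to round spermatids gave 2.47 times in the H2A.L.2-less and 3.06 times in the WT locus, against 2.45 and 2.64. The step to condensing nucleosomes gave 1.85 and 1.49 times, against 1.69 and 1.59.

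Small structures of the locus were set against nucleosomes of the same genotype. Of the H2A.L.2-less small structures, 381 of 1552 lay within 40 bp of a condensing nucleosome summit (24.5%, 22.5 to 26.8), against 21.6% in the rest of chromosome 18 and 23% genome-wide. In WT the number was 457 of 2024 (22.6%, 20.8 to 24.5), against 22.2% and 23.5%. Round spermatid nucleosome summits were met by 288 of the 1552 H2A.L.2-less small structures (18.6%, 16.7 to 20.6), against 24.96% and 24.3%. They were met by 761 of the 2024 WT ones (37.6%, 35.5 to 39.7), against 42.7% and 42%. Over the moved background the H2A.L.2-less locus stood at 1.72 times for condensing and 1.25 times for round nucleosomes, and the WT locus at 1.46 and 2.01 times. The rest of the chromosome had 1.32 and 1.33 times in H2A.L.2-less cells, and 1.42 and 1.86 times in WT. The H2A.L.2-less value for condensing nucleosomes exceeded the chromosome's by more than the SD over windows (0.205 times), but the difference in matched share did not exclude 0 within 20 bp (1.33 points, -0.318 to 3.15) or against all autosomes (1.31 points, -0.771 to 3.51).

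Around round spermatid summits of the WT locus, small structures were 1.90 times the level at 800 to 1000 bp within 40 bp, and 1.31 times between 170 and 210 bp (592 pairs), against 1.80 and 1.09 in the rest of chromosome 18. In the H2A.L.2-less locus the values were 1.30 and 1.05 (275 pairs), against 1.33 and 1.03. Over the 100 windows of 10 kb, numbers of small structures and round spermatid nucleosomes had a Pearson's r of -0.0228 in the H2A.L.2-less and 0.706 in the WT locus. In the other megabases of the chromosome the median r was 0.234 (range -0.158 to 0.689) and 0.753 (0.509 to 0.934), so both locus values were within the range. Small-structure numbers of the 2 genotypes had r of 0.958 over the same windows, against a median of 0.921 (range 0.784 to 0.979) in the other megabases. The windows share libraries and their depth, and these correlations are a description.

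**Figure D4:**
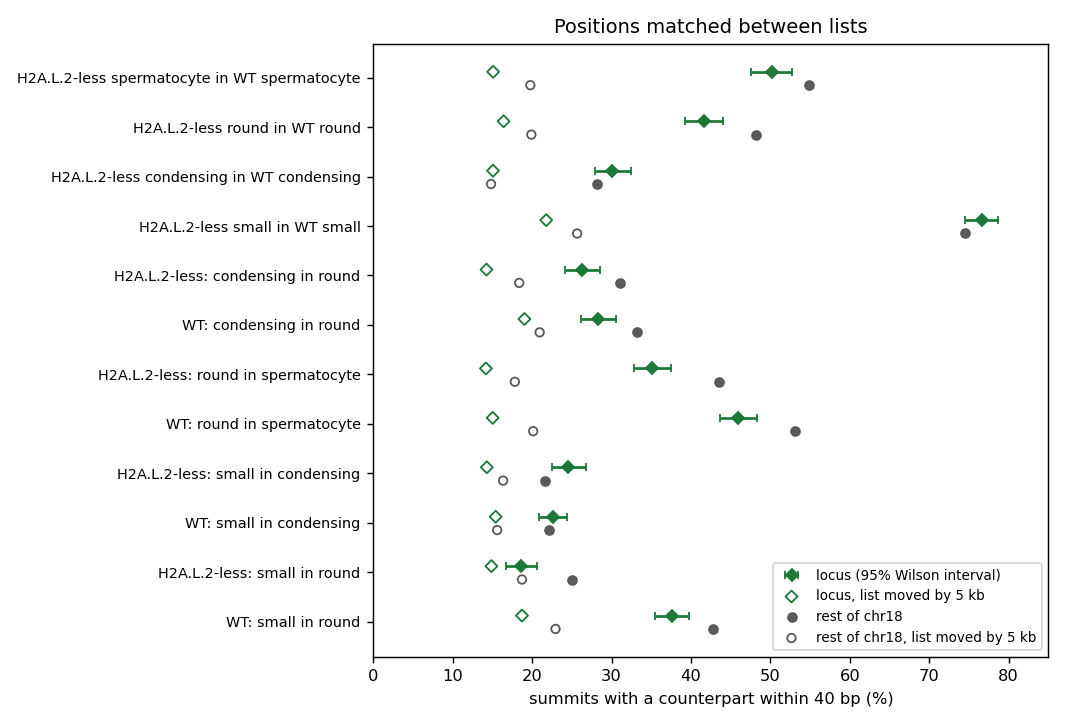
Share of summits with a counterpart within 40 bp in the locus (green diamonds, 95% Wilson interval) and in the rest of chromosome 18 (grey), for 12 pairs of lists, with the share after moving the query by 5 kb as open symbols. Locus shares lie below the rest in pairs with a spermatocyte or round spermatid list, for example 35.1% against 43.6% for H2A.L.2-less round spermatids in spermatocytes, and so do most of the open symbols.

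Few WT spermatocyte positions of the locus had counterparts throughout. In all 7 other lists a summit lay within 40 bp for 11 of 1661 positions (0.662%, 0.370 to 1.18), against 0.598% in the rest of chromosome 18 and 0.745% genome-wide. In the 5 other nucleosome lists it did so for 38 (2.29%, 1.67 to 3.12), against 2.49% and 2.75%. Conversely 157 positions (9.45%) had no counterpart in any other list, against 8.29% in the rest.

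For the shared positions, the value of each list is that of its nearest summit, within 40 bp. For the other single sites, it is that of the highest summit within 100 bp of the coordinate given, a wider limit than that for matches. Sites were picked as the highest of a list or of the shared positions, so a gap to another list is favoured by the choice and is a description of 1 library per genotype. The highest of the 11 shared positions had its WT spermatocyte summit at 37547081. Its summit value was 6.02 times the list median in H2A.L.2-less and 6.17 times in WT spermatocytes, 6.73 and 3.82 times in round spermatids and 7.19 and 7.74 times in condensing nucleosomes, but 1.10 and 1.74 times among small structures. It was thus high in all 6 nucleosome lists. A second high site lay close by, at 37547421. There the value was 6.96 times the list median in H2A.L.2-less and 1.10 times in WT spermatocytes, 9.04 and 1.13 times in round spermatids, and 17.6 and 18.9 times in condensing nucleosomes, with no small-structure summit within 100 bp. It was picked as the highest position of both early H2A.L.2-less lists, and it was also the highest of the locus in both condensing nucleosome lists.

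The next shared position, at 37141651, was led by small structures. They reached 3.50 times the list median in H2A.L.2-less and 3.52 times in WT cells, and it was the highest WT small structure of the locus. Nucleosome values there were 1.46 and 1.59 times in spermatocytes, 1.31 and 0.933 times in round spermatids, and 1.625 and 1.28 times in condensing spermatids. At 37144961 all 8 values lay between 1.03 and 1.88 times the list median, at 37550221 between 0.900 and 2.05, and at 38017001 between 0.880 and 1.68. For the site at 37144961, summits of all 8 lists fell between 37144931 and 37144961.

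Among the 3 highest positions of each list, nucleosome and small-structure lists shared no site. At 37942691 nucleosome values were lower at each later stage in both genotypes, with 3.05, 2.84 and 1.90 times the list median in H2A.L.2-less spermatocytes, round and condensing spermatids, and 3.22, 2.77 and 2.14 times in WT. Summits of the other lists at this site lay at 37942731 to 37942771. At 37437771 nucleosome values were 1.86, 1.65 and 2.42 times in H2A.L.2-less and 1.62, 2.38 and 3.68 times in WT cells, with the WT spermatocyte summit at 37437711. At 37724311 values were 1.21, 1.45 and 5.17 times in H2A.L.2-less cells, with the spermatocyte summit at 37724211, whereas WT cells had 3.44 times in condensing spermatids and no summit within 100 bp at the earlier stages. At 37792871 the H2A.L.2-less lists had 1.30, 2.98 and 2.21 times and the WT lists 1.33, 0.733 and 1.76 times. At 37182881 the H2A.L.2-less lists had 1.88, 1.67 and 2.58 times, and the WT lists 2.41, 2.23 and 1.36 times.

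Of the 6 highest small structures, 3 from each list, 5 had a counterpart of the other genotype within 40 bp. At 37303181 the value was 3.90 times the list median in H2A.L.2-less and 2.06 times in WT cells, and at 37854361 it was 3.80 and 1.84 times. At 37735601 the H2A.L.2-less value was 3.85 times, with no WT small structure within 40 bp, and the highest WT summit within 100 bp, of 2.33 times, was at 37735541. At 37892241 the values were 3.40 and 3.38 times, and at 37935511 they were 3.80 and 3.48 times, the last with no nucleosome summit of any list within 100 bp. Over all 1190 matched small structures of the locus, the median log2 ratio of H2A.L.2-less over WT relative height was -0.05 (-0.09 to -0.02), against -0.10 in the rest of chromosome 18, and the heights correlated at r of 0.722 across positions (median of the other windows 0.620).

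At the borders, the first WT spermatocyte summit inside the interval was at 37050121 with 0.862 times the list median, and the last outside before it at 37049971 with 0.793 times. The last inside was at 38049791 with 0.810 times and the first beyond it at 38050681 with 1.36 times.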

How the data were processed

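Sample titles gave the stage, genotype and fragment class of the 8 MNase libraries, 1 per group. The submitters' processing notes name the mm9 build, Bowtie2 2.2.9 and deepTools 2.2.4. Runs of a sample were merged by the authors, per the series text. Caller settings, and how duplicates or reads aligning to several places were treated, are not given in the sources used here. The authors' deposited lists hold, per the file headers, the summit of each position with its value and fuzziness. Summit values are the authors' coverage signal, in whole multiples of 4 and not visibly scaled to depth, and fuzziness is the authors' score. Positions are 140 bp wide, and most summits (94.9% to 98.8% by list) fall on a 10 bp grid.

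The interval, distance bands and comparisons were chosen with earlier results of these data known. The array ratio counts summit pairs in the farther of 2 distance bands over the nearer. The locus was compared with the rest of chromosome 18 and its other 1 Mb windows. Named sites are the 3 highest positions of each list, the 5 highest found in all lists, the longest runs and empty stretches, and the 100 kb windows of extreme genotype ratio. Counts have exact Poisson intervals, ratios of counts exact binomial ones, shares Wilson ones and medians order-statistic ones, all at 95%. The matching code was run on simulated positions, with 59.45% of 4000 set up as matches and 59.45% found. These positions lay far apart and all matches were placed within the limit, so this outcome was fixed and checks the code only. It does not measure the accuracy of shares in real lists, where neighbours lie closer. Python 3.11.15, numpy 2.4.6, pandas 2.3.3, scipy 1.17.1 and matplotlib 3.10.9 were used.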

Additional observations from a re-analysis of the deposited data

Results flagged for a closer look

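The direction of the locus against the rest of chromosome 18 differed between stages in both genotypes, without a test of the difference. The density of positions was lower in the locus in spermatocytes and round spermatids and slightly higher in condensing nucleosomes, where the excess was not seen against all autosomes. Averaged over genotypes, the log2 density ratio of condensing nucleosomes was 0.45 above that of spermatocytes and 0.34 above that of round spermatids. The median summit value was lower in the locus in both early stages and higher among small structures, by 0.32 on the log2 scale over spermatocytes and 0.27 over round spermatids. In WT small structures the height was within the spread of the chromosome's windows. Fragment selection was stated for the condensing libraries only and cannot be told apart from stage.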

How the results depend on the processing

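Of 222 values recomputed under alternative settings, 177 stayed within the interval of the reported value, 44 moved beyond it and 1 reversed, and the cause was not tested. With the borders moved inwards by 50 kb, or without the highest 0.1% of positions, none moved. The interval of the difference excluded 0 for the reported value but not under the alternative in 18 cases, and the reverse held in 19. No paired analysis was possible because each group has 1 library. All values are locus against rest: log2 ratios for density and height, differences otherwise.

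With equal numbers of positions per list, log2 density was -0.51 in H2A.L.2-less and -0.43 in WT spermatocytes, -0.35 in WT round spermatids and 0.14 in WT small structures. The height was -0.0489 in H2A.L.2-less spermatocytes and 0 in H2A.L.2-less round spermatids. In WT small structures fuzziness differed by 1.73 and the median distance by -40 bp. The matched share differed by -8.59 points for H2A.L.2-less spermatocytes in WT and -11.2 points for the converse, 4.72 points for H2A.L.2-less small structures in WT, and -8.67 points for WT small structures in round spermatids. The log2 number ratio differed by 0.44 for WT condensing over round nucleosomes and 0.0426 for WT small structures over condensing nucleosomes.

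With positions at or above the lower quartile, log2 density was -0.51 in H2A.L.2-less and -0.40 in WT spermatocytes, -0.31 in WT round spermatids and 0.11 in WT small structures. Against the other autosomes, density in condensing nucleosomes was reversed at -0.00915 in H2A.L.2-less cells and was 0.0175 in WT, and in small structures it was -0.11 in both genotypes. The height was then 0.14 for H2A.L.2-less and 0.0575 for WT small structures, and -0.10 for WT spermatocytes. Fuzziness differed by -0.384 in WT spermatocytes, 0.272 in WT round spermatids, and 1.47 in H2A.L.2-less and 0.773 in WT small structures. The median distance differed by 0 bp in H2A.L.2-less condensing nucleosomes, the matched share of WT small structures in H2A.L.2-less ones by 0.881 points, and the log2 number ratio of H2A.L.2-less condensing over round nucleosomes by 0.25. With gaps of any length the median distance differed by 60 bp in H2A.L.2-less spermatocytes, 20 bp in WT round spermatids and -30 bp in WT condensing nucleosomes.

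Matching within 20 bp gave differences of -4.57 points for WT spermatocytes in H2A.L.2-less ones and -5.38 points for H2A.L.2-less round spermatids in spermatocytes. It gave -2.35 points for H2A.L.2-less condensing in round nucleosomes, and -3.50 and -2.45 points for H2A.L.2-less and WT small structures in round nucleosomes. Within 73 bp, condensing in round nucleosomes differed by -8.07 points in H2A.L.2-less and -8.05 points in WT cells, and small structures in round nucleosomes by -8.80 and -7.70 points. WT small structures in condensing nucleosomes then differed by 2.32 points.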
